A study of Rattus norvegicus with 30 samples.

Results

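The region described here is a 300 kb segment of rat chromosome 9, from 11.1 to 11.4 Mb of the rn5 assembly, together with every CpG, CHG and CHH cytosine called in it (H is any base other than G). It was chosen by position, from results already known for these rats, because many non-CpG sites and several near-complete differences between group means lie there. The calls for aged and young rats held 14460 of their 1059667 cytosines in the segment, or 1.36%, and 21.1% of all cytosines called on chromosome 9. The calls for impaired and unimpaired rats held 15163 of 1024958.

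Whole genome bisulfite sequencing was performed on DNA from the medial prefrontal cortex (mPFC, prelimbic and infralimbic parts) of 30 male Fischer 344 rats, 1 library per rat. The 10 young rats were 5 to 6 months old and the 20 aged rats 17 to 22 months. All were food restricted and trained on an operant set shifting task, and the aged rats were divided by their trials to criterion into 9 impaired (AI) and 11 unimpaired (AU) animals, so AI and AU are the poorer and the better performers of 1 aged cohort and not separate strains or treatments. Each value is a methylation ratio, the share of reads at a cytosine that read as methylated, given only where a rat had at least 5 reads. The ratios exist in 2 sets of calls, that of the age comparison (30 rats) and that of the impairment comparison (the same 20 aged rats without the young), so the ratio of an aged rat can be read at the same cytosine in both. Rat identifiers fall into 3 number series, named A (14 rats), B (11 rats) and C (5 rats, of which 4 were young). Expression of cell type markers was not used here, so the labelled tissue was not checked. In such tissue a lower ratio in every cell and a smaller share of methylated cells cannot be told apart.

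In mammals, DNA methyltransferases add methyl groups mostly to the cytosine of CpG, on both strands, and most CpGs of the genome carry them. Clusters of CpGs at many gene starts are kept free of methylation. Adult brain also carries methylation outside CpG, mainly in neurons, where it is laid down on single cytosines by DNMT3A at low levels. Non-CpG ratios are also sensitive to incomplete bisulfite conversion, because an unconverted cytosine reads as methylated.

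No sequence of the rn5 assembly was used here, so sites are given by position and context. The Ensembl annotation used by the study for rn5 places the CpG 199031 bp into the segment in an exon of AABR06058583.1 and the CpG 253671 bp into it in the promoter of Rn50_9_0114.1, and for the other sites no annotation was used here. Positions are on chromosome 9 unless stated.

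The segment stood out by the number of cytosines with calls in all 3 contexts, and not by its share of non-CpG sites. The calls for aged and young rats held 858 CpG, 3606 CHG and 9996 CHH sites in it, which were 5.93%, 24.9% and 69.1% of its cytosines, against 8.07%, 25.2% and 66.7% over the whole series. In windows of the same 300 kb across the genome, the median window held 6 CpG, 14 CHG and 41 CHH sites, and only 2 windows held more CpG sites and 1 held more CHG or CHH sites than the segment. That window lies on chromosome 1, from 56700000 to 56999999, with 5287 CHG and 14127 CHH sites. No position was listed under more than 1 context.

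The sites lay in short dense runs. With sites of all contexts joined where gaps were under 1000 bp, 32 runs of at least 20 sites held 14408 sites, or 99.6% of the segment, within 111918 bp. They ranged from 209 to 29894 bp with a median of 1716 bp. The largest, from 11286830 to 11316723, held 3905 sites, 156 of them CpGs. The first site lay 25875 bp inside the segment at 11125875 and followed a gap of 53692 bp without calls, and the last lay at 11393909. The median site was called in 19 rats for CpG and in 18 rats for CHG and CHH, against 16, 15 and 15 rats at the other sites of the series, but fewer sites had a value in all 30 rats (5.94% against 7.51% of CpG, 3.91% against 5.82% of CHG and 2.82% against 5.40% of CHH sites). All 14 rats of series A held a larger share of the CpG sites of the segment than of the other CpG sites, while 6 of 11 rats of series B held a smaller one, and for CHH 9 of 11 did.

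**Figure D1:**
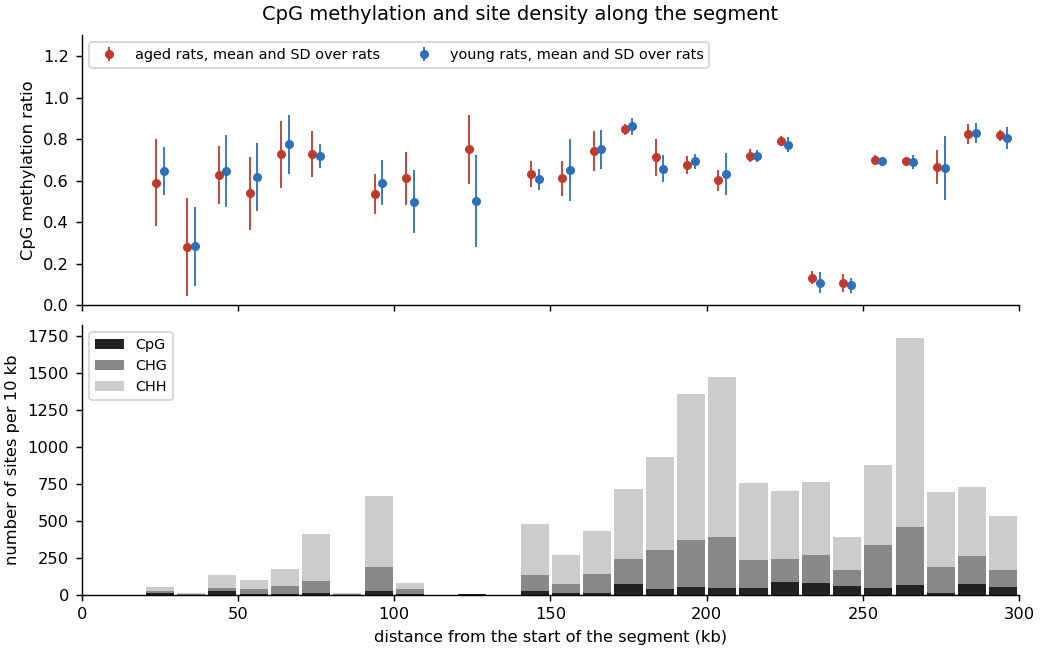
The upper panel plots the CpG methylation ratio (mean and SD over rats, aged and young) in 10 kb bins against distance from the start of the segment in kb, and the lower panel stacks the number of CpG, CHG and CHH sites per bin. Only the bins that start 230 and 240 kb in fall near 0.1, and site density is highest from about 190 kb on.

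CpG methylation was high across most of the segment and nearly absent in one short stretch. Over its 858 CpGs the mean of the site means was 0.631 and the median 0.732, against 0.710 and 0.786 at the other 84626 CpGs. CpGs with a mean under 0.1 made up 13.3% of the segment and 4.29% of the rest, while those over 0.9 made up 15.9% and 15.2%. Among the 25 runs with at least 5 CpGs, the mean CpG ratio ranged from 0.0566 to 0.902 with a median of 0.689, and only 2 runs had a mean under 0.5.

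These 2 runs, the 29th and 30th along the segment, were picked after their values were seen. Run 29, from 11335775 to 11337696, held 77 CpGs with a mean of 0.107, of which 63 were under 0.1 and 6 were over 0.5. Run 30, from 11340521 to 11340802, held 49 CpGs in 282 bp with a mean of 0.0566, of which 43 were under 0.1 and none over 0.5. Between the first and last CpG of run 30 there were 18.5 CpG cytosines per 100 bp, both strands counted, and 5.20 in run 29. The nearest CpGs with a call on the outer sides, at 11334052 and 11342774, had mean ratios of 0.804 (11 rats) and 0.453 (14 rats). Run 29 fell along its length: its first CpGs were at about 0.8 in aged and young rats, and most later CpGs were near 0.

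The low level was shared by the rats. In run 29 aged rats had a mean over CpGs of 0.107 ± 0.0328 (SD, n = 20) and young rats one of 0.0875 ± 0.0399 (n = 10), and in run 30 it was 0.0553 ± 0.0309 and 0.0294 ± 0.0187. The aged mean was the higher in both runs, in run 29 by less than the SD of either group and in run 30 by less than the SD of the aged but more than that of the young rats. CpGs 11337566, 11340632 and 11340689, described below, lie in these runs and have near-complete aged and young differences, so they enter these means. The 732 other CpGs of the segment had a mean per rat of 0.723 ± 0.0106 in aged and 0.723 ± 0.0146 in young rats.

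**Figure D2:**
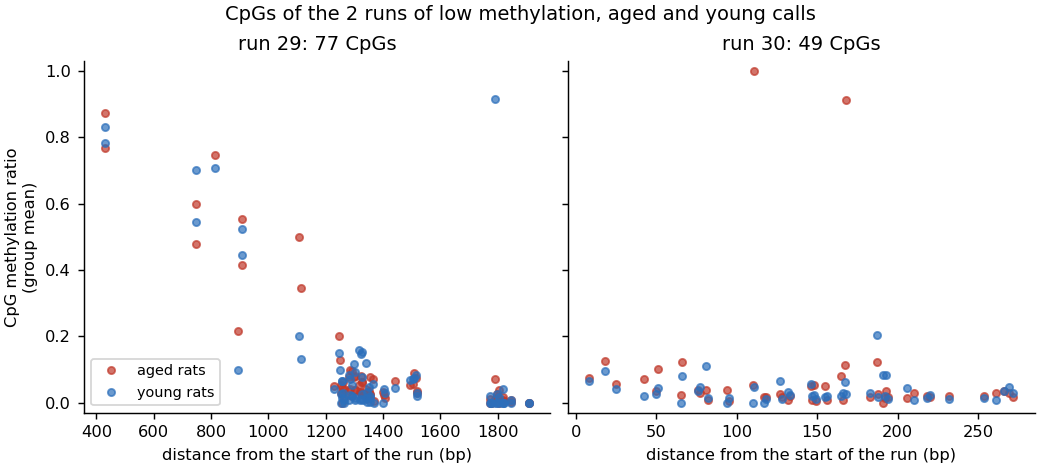
Mean CpG methylation ratio of the aged (20) and young (10) rats at each CpG of runs 29 and 30 against distance in bp from the start of the run. Beyond the first CpGs of run 29, nearly all lie near 0 in both ages, and the isolated points near 1 are CpG 11337566 (young) and CpGs 11340632 and 11340689 (aged).

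Whether the segment differs from the rest of the genome in CpG level was tested within each library. Per rat, the mean CpG ratio was 0.614 in the segment and 0.701 over all other CpGs, and the difference was -0.0870 ± 0.0213 (SD, n = 30). It was negative in 30 of 30 rats (sign-flip permutation test, 2-sided, p = 2e-05, the smallest that 100000 resamples can give). The direction depended on which CpGs of the segment entered and on what they were set against. Without runs 29 and 30 the difference was 0.0228, where a rise follows from taking out the lowest runs of the segment alone. Against the 300000 bp on either side, which held 90 and 144 CpGs, it was 0.0395 with the runs kept (permutation p = 8e-05). Each rat's mean is over the CpGs called in it, from 183 to 801 of the 858 in the segment. The test speaks of how alike the 30 rats are in this difference and not of how the segment ranks among other places of the genome.

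Non-CpG methylation was low, at a level slightly above that of the series. The mean of the site means was 0.0271 for CHG and 0.0224 for CHH, against 0.0227 and 0.0170 at the other sites. A mean over 0.1 was found at 175 CHG sites (4.85%, against 3.45% elsewhere) and at 427 CHH sites (4.27%, against 2.69%). Per rat, the segment lay above the rest by 0.00258 ± 0.00205 (SD, n = 30) for CHG, with rats from -0.00237 to 0.00585. For CHH it lay above by 0.00497 ± 0.00131, and the lowest rat, at 0.000623, was still above 0. These differences were not tested. In 10 kb bins the CHG mean ranged from 0.00823 to 0.0443, and the bins of low CpG methylation were at 0.0227 and 0.0177. In runs 29 and 30 together the CHG mean was 0.0173 and the CHH mean 0.0161, also under the segment's means.

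**Figure D3:**
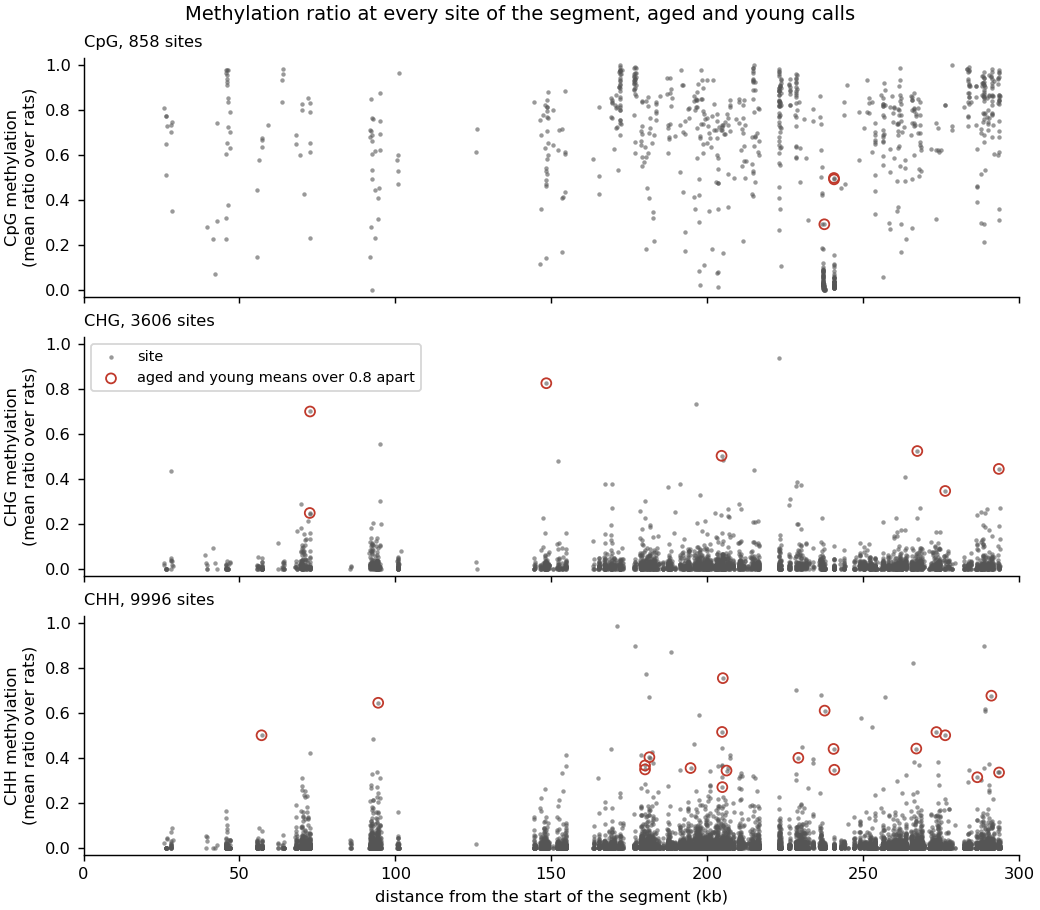
Each point is a cytosine of the segment, with its methylation ratio averaged over all rats with a value (y axis) against distance from the start of the segment in kb, for 858 CpG, 3606 CHG and 9996 CHH sites in the aged and young calls. Red circles mark the 3 CpG, 7 CHG and 20 CHH sites with aged and young means over 0.8 apart; the column of CpGs near 0 at about 240 kb is the pair of low runs.

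A few non-CpG cytosines were highly methylated in all groups. In the aged and young calls, 3 CHG and 15 CHH sites had a mean over 0.5 in both ages, and their median distance to the nearest CpG with a call was 20 and 52 bp. CHG 11322883 had the highest mean of the CHG sites with a value in 15 or more rats: it was 0.953 ± 0.0560 (SD, n = 4) in AI, 0.902 ± 0.165 (n = 7) in AU and 0.959 ± 0.108 (n = 7) in young rats. Of these 18 rats, 12 were at exactly 1 and the lowest was an AU rat at 0.556. CHG 11296525 followed, with 0.754 ± 0.0812 (n = 7) in AI, 0.667 ± 0.146 (n = 8) in AU and 0.794 ± 0.125 (n = 6) in young rats, and then CHG 11194977, with 0.598 ± 0.0526 (n = 6), 0.486 ± 0.157 (n = 8) and 0.601 ± 0.105 (n = 6). The 3 groups overlapped at each of these sites, and the order of the sites was the same in every group.

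Among CHH sites, CHH 11271166 was the highest in the aged and young calls, at 0.974 ± 0.0609 (SD, n = 12) in aged and 1 in all 6 young rats with a value. CHH 11388710 was at 0.875 ± 0.124 (n = 15) and 0.950 ± 0.0929 (n = 6), and CHH 11366034 at 0.821 ± 0.114 (n = 17) in aged rats and 0.813 (n = 6) in young rats. In the AI and AU calls, which do not hold CHH 11271166, CHH 11310247 was among the 3 highest of the CHH sites with a value in most rats. It was at 0.867 ± 0.115 (n = 3) in AI and 0.738 (n = 8) in AU rats. Aged and young ranges overlapped at CHH 11271166, 11388710 and 11366034.

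CpG cytosines 1 bp apart were alike, and CHG cytosines 2 bp apart differed at the few highly methylated sites. Pairs were formed by distance alone, without sequence or strand. A pair can be the 2 strands of 1 CpG or CHG or, where these adjoin, cytosines of neighbouring ones. Of 189 pairs of CpG cytosines 1 bp apart, 90.5% had means within 0.2 of each other (median difference 0.0518). Of 704 CHG pairs 2 bp apart, 6 had a member over 0.5, and the median difference within those 6 was 0.623. In 4 of the 6 the members were apart by over 0.5. The higher member of 3 of these pairs is a site whose aged ratios changed between the sets of calls (below), and 1 pair, at CHG 11367379, was in this set alone. The pairs at CHG 11296525 and 11322883 were in both sets with the same aged ratios, at 0.732 against 0.00952 and 0.936 against 0.0116. The same held elsewhere in the series, where 184 of 197 such CHG pairs were apart by over 0.5.

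The near-complete differences between group means drew attention to the segment, and their sizes are given as descriptions without a test. Aged and young means were apart by over 0.8 at 30 sites: 3 CpG sites (0.0187% of CpGs over the whole series), 7 CHG sites (0.138%) and 20 CHH sites (0.116%). The segment's own shares were 0.350%, 0.194% and 0.20%. The aged mean was the higher at 22 of the 30 sites. AI and AU means were apart by over 0.8 at 10 sites, namely 2 CpG (0.00618% over the series), 2 CHG (0.0581%) and 6 CHH (0.0451%), and the AI mean was the lower at 8 of them. The segment's shares there were 0.229%, 0.0528% and 0.0571%. Counted once, 32 sites met the condition in either set of calls, and 8 met it in both. Rats of the groups compared did not overlap in any of these 40 comparisons. Choosing sites by means over 0.8 apart, on ratios from 0 to 1, leaves little room for overlap, so nothing is read from this.

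Differences of this size were set apart from smaller ones in the AI and AU calls and less so in the aged and young calls. In the AI and AU calls, the smallest difference over 0.8 was -0.851, at CHH 11391137, while the largest below it was -0.398, at CpG 11378712. In the aged and young calls the values just inside were -0.809 at CHG 11172543 and 0.818 at CHG 11248407, and those just outside were 0.713 at CHG 11252216 and 0.698 at CHH 11333965. The 32 sites lay in 13 of the runs, 7 of them in the largest run and 6 in the low runs 29 and 30. CHH 11280063 and 11280064 were neighbours.

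The same rats were then read in the other set of calls. Of the 30 sites with aged and young means over 0.8 apart, 25 were also in the AI and AU calls. All 21 of these with a higher aged mean held another ratio there for the same aged rats: both AI and AU rats had moved at 13 sites, AI rats alone at 6 and AU rats alone at 2. At the 13 sites the AI and AU rats were high, at a mean of 0.8 or more, in the aged and young calls, and low, under 0.3, in the AI and AU calls. The other 4 sites, with a lower aged mean, had the same 53 aged ratios in both sets. Their high values belong to young rats, which have no second reading. Of the 10 sites with AI and AU means over 0.8 apart, 8 were in both sets, and at all 8 AI rats (6 sites) or AU rats (2 sites) had another ratio in the aged and young calls. None of the aged-higher sites, and none of the AI and AU sites, that could be checked therefore kept both groups' ratios in the other set.

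Which rats had a value changed as well. Over the 21 sites that moved, a median of 5 aged rats had a value in the aged and young calls and 14 in the AI and AU calls, and at 18 sites the second number was the larger. Where both groups moved, the medians were 4 and 15 rats. Of 139 ratios of rats with a value in both sets at these sites, 83 moved by over 0.8 and 48 were the same within 0.001. In a group that moved at a site, every rat with a value in both sets moved. The cause of the move was not tested.

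**Figure D4:**
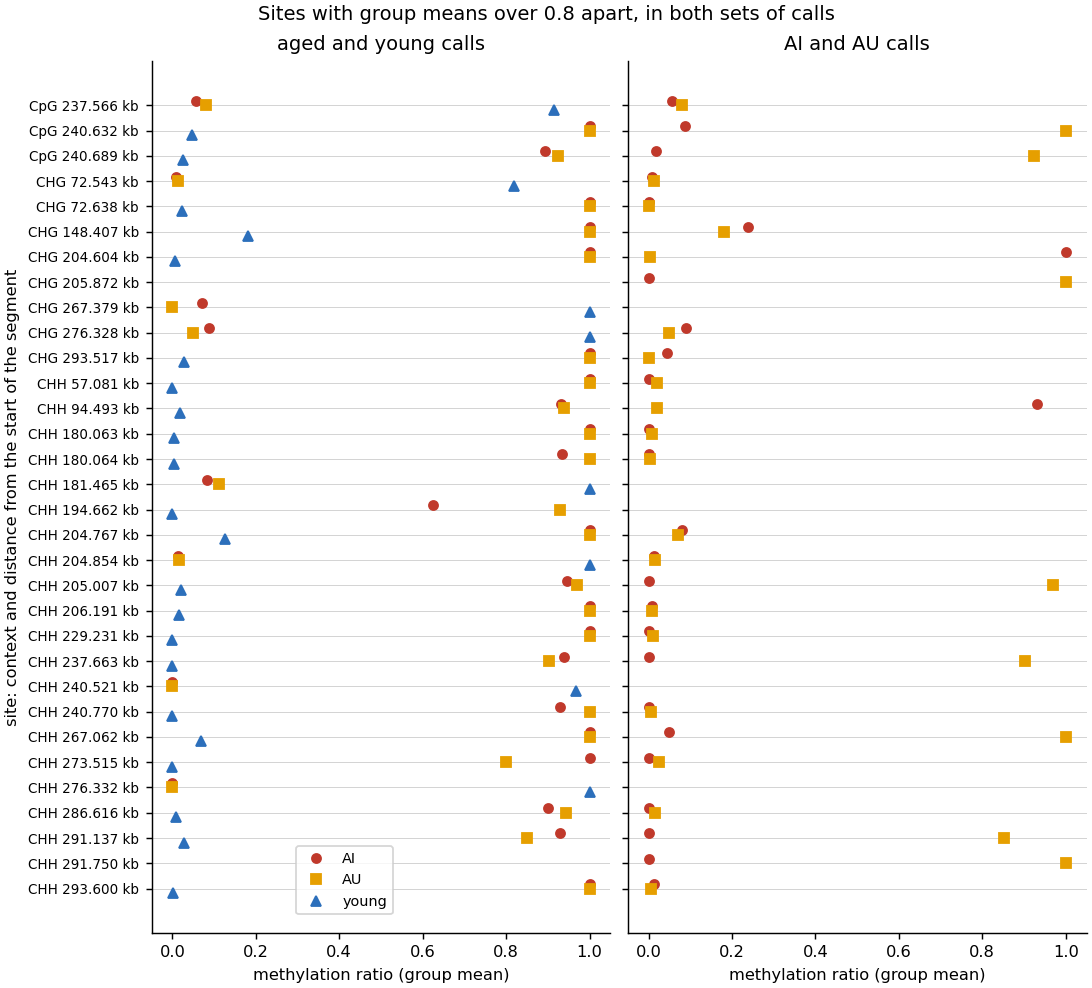
Group mean methylation ratio (x axis, 0 to 1) of AI (circles), AU (squares) and young rats (triangles) at the 32 sites with means over 0.8 apart, in the aged and young calls (left) and in the AI and AU calls (right, no young rats). Sites are named by context and distance from the start of the segment in kb; where both aged symbols stand at the right in the left panel and at the left in the right panel, the same aged rats changed ratio between the calls.

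CpG 11340632, in run 30, shows the pattern at a CpG. In the aged and young calls 5 AI and 4 AU rats all stood at 1, while the 10 young rats lay between 0 and 0.143 with a median of 0.0323. In the AI and AU calls the same 4 AU rats again stood at 1, but 9 AI rats lay between 0 and 0.143 with a median of 0.0870. AI rats thus read as fully methylated in one set and as nearly unmethylated, like the young rats, in the other. CpG 11340689, 57 bp further, did the same: AI rats were at 0.893 ± 0.0855 (SD, n = 4) in the first set and 0.0177 ± 0.0274 (n = 9) in the second, with AU rats at 0.924 ± 0.0876 (n = 6) in both and young rats at 0.0250 ± 0.0404 (n = 9). Most CpGs around them were under 0.1 in every group.

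At CHG 11304604 it was the AU rats that moved. They were at 1 in all 6 rats of the aged and young calls and at 0.00333 ± 0.0105 (SD, n = 10) in the AI and AU calls, while 3 AI rats stood at 1 in both and 9 young rats were at 0.00556 ± 0.0167. CHH 11194493 was alike, with AU rats at 0.939 ± 0.0747 (n = 8) and then 0.0213 ± 0.0315 (n = 8), AI rats at 0.932 ± 0.0692 (n = 7) in both and young rats at 0.0191 ± 0.0328 (n = 7). Read from the AI and AU calls alone, these are the only 2 sites of the 10 with the higher mean in AI rats.

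CHH 11305007 was the moved site with most rats in the aged and young calls. There 9 AI rats lay between 0.8 and 1 (median 1), 9 AU rats ranged from 0.909 to 1, and 5 young rats lay at 0 except one at 0.105. In the AI and AU calls 6 AI rats were all at 0 and the 9 AU rats kept their ratios. At CHH 11393600 both groups moved: 3 AI and 2 AU rats were at 1 in the aged and young calls, against 10 young rats at 0.00238 ± 0.00753 (SD), and all 20 aged rats were low in the AI and AU calls, at 0.0124 ± 0.0268 (n = 9) in AI and 0.00699 ± 0.0232 (n = 11) in AU rats. More aged rats had a value in the low state than in the high state at this site.

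Of the 8 sites with the higher mean in young rats, the 4 in both sets kept their aged ratios, and the other 4 (CHG 11367379 and CHH 11281465, 11340521 and 11376332) could not be checked. CpG 11337566, in run 29, was at 0.0565 ± 0.0663 (SD, n = 6) in AI and 0.0809 ± 0.121 (n = 8) in AU rats in both sets, and at 0.914 ± 0.128 (n = 5) in young rats, of which 3 were at 1 and the lowest at 0.714. At CHH 11304854 all 9 AI rats (0.0134 ± 0.0186) and all 11 AU rats (0.0152 ± 0.0242) had a value, the highest being 0.0667, and 7 young rats were all at 1. CHG 11172543 was at 0.0110 ± 0.0262 (n = 12) in aged and 0.820 (n = 5) in young rats, and CHG 11376328 at 0.0667 ± 0.0882 (n = 7) and 1 (n = 3). No young rat overlapped an aged rat at these sites, for which the choice by means over 0.8 apart leaves little room. No second reading of the young rats was available to set beside their values.

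CHH 11254720 differed in size and in spread. In young rats it ranged from 0.667 to 0.833 with a median of 0.809 (n = 8). In aged rats 10 of the 11 with a value lay between 0 and 0.182, and 1 AI rat of series B was at 0.8, inside the young range. The 11 aged ratios were the same in both sets of calls. CHH 11333965 was at 0.727 ± 0.183 (SD, n = 5) in aged and 0.0286 ± 0.0639 (n = 5) in young rats in the first set, and at 0 in all 18 aged rats with a value in the second.

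At the great majority of sites the 2 sets of calls gave the same ratios. Of 176794 ratios of an aged rat at a site of the segment with a value in both sets, 99.9% were the same within 0.001. At 759 CpG sites in both sets, 3 held another ratio in some rat, at 3236 CHG sites 6 did, and at 8922 CHH sites 16 did. Of these 25 sites, 21 are those described above as moved, and the other 4 had means less than 0.8 apart. CHH 11333965 was one. At CHG 11252216 aged rats went from 0.926 (n = 3) to 0.210 (n = 12), at CHG 11280050 from 0.774 (n = 3) to 0.114 (n = 20), and at CpG 11314435 from 0.830 (n = 5) to 0.674 (n = 11), where 2 rats held another ratio. The share of sites with another ratio was lower in the segment than at the other sites in both sets, at 0.395% against 0.812% of CpG, 0.185% against 0.363% of CHG and 0.179% against 0.411% of CHH sites. A move of over 0.8 in some rat, in contrast, was found at 0.264% of CpG, 0.124% of CHG and 0.179% of CHH sites of the segment, and at 0.0201%, 0.10% and 0.0809% of the other sites in both sets.

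Sites past the study's threshold for age (unadjusted p under 0.05 in the study's unequal-variance test per site, CHG and CHH sites with a mean over 0.1 in at least 1 group) are counted beside their share over the series, and nothing is read from them because the group differences chose the segment. For aged against young rats, 52 of 858 CpG sites passed (6.06%; 6.13% over the series), 21 higher and 31 lower in aged rats. Of 260 CHG sites tested, 27 passed (10.4%; 8.98% over the series), 18 of them higher in aged rats, and of 603 CHH sites 58 passed (9.62%; 8.81%), 35 of them higher. After Benjamini-Hochberg adjustment over all sites of a context, 3 CpG (0.0690% of sites tested over the series), 7 CHG (2.12%) and 18 CHH sites (2.24%) passed. Of these 28 sites, 23 were among those over 0.8 apart. The others were CHG 11170816, higher in aged rats at 0.204 ± 0.133 (SD, n = 10) against 0 in 3 young rats, CHG 11282867, at 0.111 ± 0.0839 (n = 15) against 0.00680 (n = 7), CHH 11303377, lower in aged rats at 0.0581 ± 0.0748 (n = 17) against 0.208 (n = 7), and CHH 11254720 and 11333965.

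For AI against AU rats, 45 of 873 CpG sites passed (5.15%; 4.10% over the series), 19 higher in AI rats. Of 306 CHG sites 20 passed (6.54%; 6.23% over the series), and of 665 CHH sites 61 passed (9.17%; 6.10%), with 12 and 30 higher in AI rats. Adjusted over all sites of a context, 2 CpG (0.00865% over the series), 2 CHG (0.597%) and 5 CHH sites (0.661%) passed, and 8 of these 9 sites were over 0.8 apart and held another ratio in the aged and young calls. The ninth was CHG 11310211, at 0 in 3 AI rats and 0.137 in 7 AU rats. Other sites among the lowest p-values were CpG 11282244, at 0.613 ± 0.0489 (SD, n = 3) in AI and 0.910 (n = 9) in AU rats, and CHG 11358580, at 0.131 ± 0.0466 (n = 4) and 0.0130 (n = 7).

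The 2 annotated CpGs varied within groups. The study lists both among CpGs correlated with trials to criterion and with RNA levels across aged rats. That is another measure than the AI and AU groups used here. The exonic CpG, 199031 bp into the segment, was in the AI and AU calls alone, with AI rats at 0.75, 0.8 and 1 and AU rats at 0.444, 0.667, 0.833 and 0.875. The promoter CpG, 253671 bp into it, had AI rats at 0.5, 0.571 and 0.571, AU rats at 0.333, 0.4, 0.4 and 0.8 and young rats at 0.333, 0.444 and 0.75, and its aged ratios were the same in both sets. The groups overlapped at both CpGs.

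Averaged over the segment, the groups lay close together. Aged rats had a CpG mean of 0.616 ± 0.0187 (SD, n = 20) and young rats one of 0.609 ± 0.0247 (n = 10). For CHG it was 0.0252 ± 0.00230 and 0.0255 ± 0.00156, and for CHH 0.0221 ± 0.000986 and 0.0212 ± 0.00150. In the AI and AU calls the CpG mean was 0.622 ± 0.0220 (n = 9) in AI and 0.619 ± 0.0198 (n = 11) in AU rats, the CHG mean 0.0258 ± 0.00291 and 0.0249 ± 0.00198, and the CHH mean 0.0214 ± 0.00119 and 0.0219 ± 0.000751. Each of these differences was smaller than the SD of either group, and the groups overlapped in every context. With each site centred on its mean over rats, the AI minus AU difference in CHG was 0.00132, above the SD of AI rats (0.000952) and that of AU rats (0.000960), with 8 of 11 AU rats below every AI rat and the ranges still overlapping. The centred aged minus young difference in CHH was 0.000834, between the SD of young rats (0.000740) and that of aged rats (0.00108), and the other centred differences were smaller than either SD. Within series A the aged minus young difference was -0.00524 for CpG, 3.22e-05 for CHG and 8.60e-06 for CHH, and within series B it was 0.00601, -0.00130 and 0.00135. The AI minus AU differences were -0.000843, 0.00211 and 0.000281 within series A and 0.0134, 0.000295 and -0.00158 within series B. The CHG difference in series A exceeded the SDs of 0.00178 in 5 AI and 0.000797 in 6 AU rats, and the CHH difference in series B exceeded those of 0.00105 and 0.000592 in 4 and 4 rats. The aged minus young CpG difference in series A exceeded the SD of 0.00230 in 3 young rats but not that of 0.00892 in 11 aged rats, and the aged minus young CHH difference in series B exceeded the SD of 0.00117 in 8 aged rats but not that of 0.00226 in 3 young rats.

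Rats of series A and B, in contrast, differed, together with the number of sites called in them. The CpG mean per rat was 0.625 ± 0.00818 (SD, n = 14) in series A and 0.601 ± 0.0224 (n = 11) in series B (permutation test, 2-sided, p = 0.00166, adjusted over the 3 contexts 0.00249). The ranges overlapped, from 0.608 to 0.639 in series A and from 0.570 to 0.640 in series B, and none of the 14 rats of series A lay above every rat of series B. The CHG mean was 0.0266 ± 0.00135 and 0.0234 ± 0.00155 (permutation p = 2e-05, the smallest that the resamples can give, adjusted 6e-05), and 8 of 14 rats of series A lay above every rat of series B. For CHH the means were 0.0223 and 0.0216 (permutation p = 0.190). The median rat of series A had a value at 732 CpG, 3119.5 CHG and 8631 CHH sites of the segment, and that of series B at 353, 1094 and 2739. With each site centred on its mean over rats, so that rats are compared at the sites they hold, the difference was 0.00196 for CpG (permutation p = 0.628) and 0.000329 for CHG (permutation p = 0.496). Without the 2 low runs the CpG difference was 0.00501 (permutation p = 0.290).

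**Figure D5:**
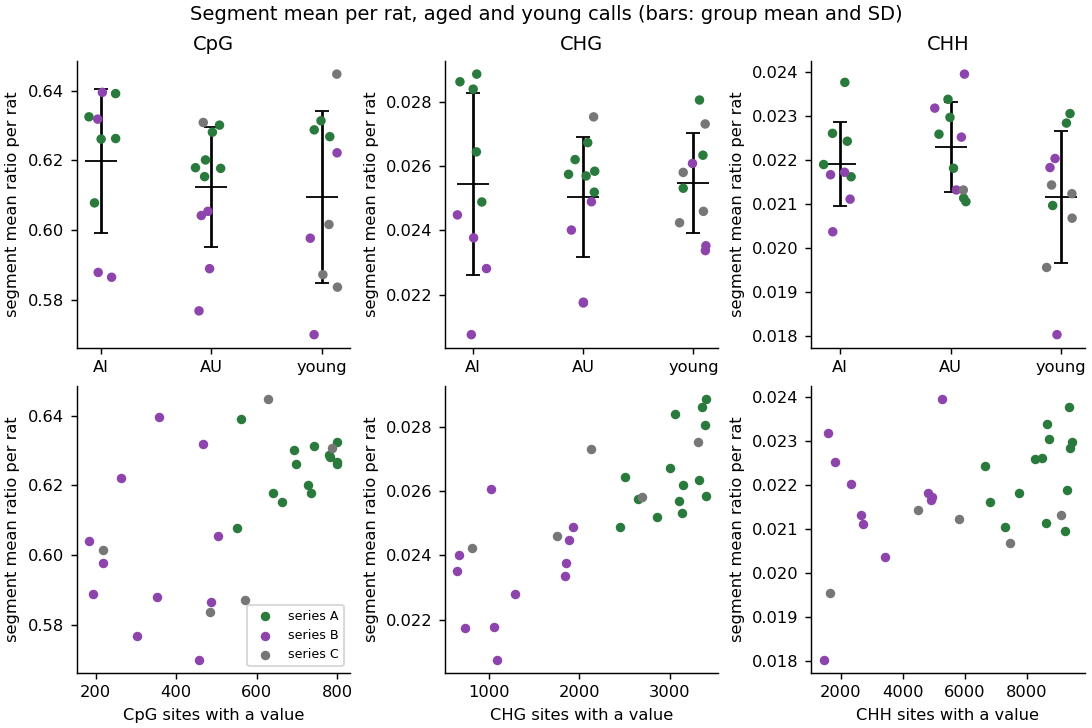
Upper row: mean methylation ratio of the segment per rat (points) in AI, AU and young rats of the aged and young calls, with the group mean and SD as bars, for CpG, CHG and CHH. Lower row: the same means against the number of segment sites with a value in that rat; colours mark number series A, B and C, and series B rats mostly hold fewer sites and have lower group means for CpG and CHG, with overlapping ranges.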

How the data were processed

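Per the labels and the study's methods, libraries from bisulfite-converted mPFC DNA were sequenced as paired ends, and the authors trimmed reads with Trimmomatic and checked them with FastQC, filtered unconverted bases with cscall, mapped reads onto rn5 with BSMAP and called ratios with cscall in the DMAP2 pipeline. Versions are not given in the sources used here. A filter on unconverted bases can also bear on the level of non-CpG ratios, which was not tested. The deposited values are a fraction per rat and cytosine, from 0 to 1, not scaled between rats, empty under 5 reads, and kept where at least 3 rats per group have a value. Read numbers do not accompany the values, so no depth or counting interval is attached to them. All 150 rat columns were mapped to rats by title.

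The segment, its sites and its tests were chosen with earlier results of these data known. Group differences are therefore descriptions. Sites were compared with Welch's test, which the study used for age (for impairment it correlated ratios with trials to criterion, not used here), with Benjamini-Hochberg adjustment over each table. Permutation tests used 100000 resamples. Named sites were those with group means over 0.8 apart, those past the adjusted threshold, and the 2 CpGs of the segment that the study lists. Per context and set, the 3 lowest p-values and the 3 highest non-CpG means with a value in most rats were also named. Others were named after their values were seen. A site constant in both groups was not tested (3 CHH in the aged and young calls, 1 CHG and 2 CHH in the others). Alternatives were limma 3.58.1 in R 4.3.3, other filters, each number series, sites with the same ratios in both sets, centring and other windows. Python 3.11.15, pandas 2.3.3 and scipy 1.17.1 were used.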

Additional observations from a re-analysis of the deposited data

Results flagged for a closer look

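Groups of 4 to 10 rats were searched for a rat far from the others, over the segment means and site counts per rat, the low runs and the sites described rat by rat. Of 93 such groups, 16 held one, all of them at single sites. Chance gives about 1 in 20 for continuous values, a rate that does not carry over to ratios with many ties: in 6 of the 16 groups all other rats were at the same value, 0 or 1, and 3 are the same rat counted again in the second set of calls.

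At CHH 11254720 one AI rat of series B was at 0.8, with the next AI rat at 0.182, in both sets of calls, and the lowest young rat was at 0.667, with the next at 0.769. At the promoter CpG 253671 bp into the segment one AU rat of series A was at 0.8, with the next at 0.4, in both sets. At CHG 11322883 an AU rat of series C was at 0.556 in both sets, with the next at 0.833, and a young rat of series A was at 0.714 while the others were at 1. At CHG 11194977 a young rat of series C was at 0.8, with the next at 0.6. At CHH 11388710 a young rat of series A was at 0.769, with the next at 0.929.

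In the remaining groups a single rat was just above rats at or near 0: at CHG 11304604 a young rat at 0.05 and, in the AI and AU calls, an AU rat at 0.0333; at CHH 11305007 a young rat at 0.105; at CHH 11333965 a young rat at 0.143; and at CHH 11393600 a young rat at 0.0238 and, in the AI and AU calls, an AI rat at 0.0769.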

How the results depend on the processing

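Counts of sites past the unadjusted threshold stayed within 1.5 times under limma, without series B and over the sites with the same ratios in both sets. Without series A they were 21 CpG (4.75% of sites tested; 4.58% over the series), 9 CHG (7.76%; 6.25%) and 17 CHH sites (6.69%; 6.04%) for age. For AI against AU they were 8 (3.01%; 3.74%), 4 (7.14%; 4.99%) and 7 (4.83%; 4.54%), with fewer rats and sites tested in both comparisons. With at least 5 rats per group they were 9 CHG (6.98%; 8.85% over the series) and 27 CHH (9.22%; 8.77%) for age. For AI against AU they were then 10 CHG (6.10%; 6.87%) and 23 CHH (6.35%; 6.31%). Without a filter on the mean ratio they were 126 CHG (3.49%; 2.12% over the series) and 248 CHH (2.48%; 1.43%) for age. For AI against AU they were 49 CHG (1.29%; 0.811%) and 113 CHH (1.08%; 0.525%). With a mean over 0.2 they were 13 CHG (16.5%; 14.1%) and 36 CHH (18.2%; 13.6%) for age, and 4 CHG (4.76%; 8.74%) and 24 CHH (12.2%; 8.58%) for AI against AU. By Welch's test the adjusted counts (3 CpG, 7 CHG and 18 CHH for age, 2, 2 and 5 for AI against AU) were 1, 0 and 2, and 0, 0 and 0, without series A; 3, 3 and 10, and 1, 0 and 4, with at least 5 rats per group; and 1, 2 and 3, and 0, 1 and 0, over the sites with the same ratios in both sets. Without series B the adjusted CpG and CHG counts were 2 and 5 for age and 2 and 0 for AI against AU. Without a ratio filter the adjusted CHG counts were 3 and 1, and with limma they were 9 and 1. Shares over the series were not taken for the adjusted counts under these alternatives, so nothing is read from them. Over the sites with the same ratios in both sets, the unadjusted counts for age were 46 CpG (6.08%; 6.73% over the series), 18 CHG (8.22%; 8.23%) and 39 CHH (7.71%; 7.84%). Those for AI against AU were 41 (5.42%; 4.25%), 14 (6.01%; 6.21%) and 45 (8.47%; 5.65%). Of the adjusted calls that lay in both sets, 1 CpG, 4 CHG and 3 CHH sites for age, and 1 CHG site for AI against AU, had the same aged ratios in both.

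The CpG difference from the rest turned from -0.0870 to 0.0395 against the flanks. Chosen after seeing the data, it was 0.0228 without the low runs and 0.149 without them against the flanks, where leaving out the lowest runs of the segment alone raises the value by construction. Series A minus B fell to 0.00196 (CpG) and 0.000329 (CHG) and turned to -0.000225 (CHH) with centring, and to 0.00501 (CpG) without the low runs. For the flanks and for centring the cause was not tested. The AI minus AU difference in CHH was -0.00158 in series B alone. The other 29 alternatives for group differences moved them by less than 1 SD over rats, centring of the CHG difference between AI and AU rats (0.00132) included. Some turned sign: the aged minus young CpG difference was -0.00683 over sites with a value in at least 3 in 4 of the rats (0.00625 over all) and -0.00524 in series A alone, where the aged minus young CHG and the AI minus AU CpG and CHH differences also turned (3.22e-05, -0.000843 and 0.000281). A tolerance of 0.05 left the share of same ratios at 99.9%, and a threshold of 0.6 raised the 40 differences over 0.8 to 44. Read depth per site is not given, so no model on counts and no other minimum of reads was run. Rats carry no shared replicate number, and no paired analysis was possible because each rat gave 1 library.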

Other observations

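The same comparison over the whole series gave values of the same kind. Of 12 CpG sites of the series with aged and young means over 0.8 apart that were in both sets of calls, aged rats held another ratio at 11, of 270 CHG sites at 198 and of 572 CHH sites at 417. For AI and AU means over 0.8 apart the numbers were 5 of 5, 100 of 106 and 202 of 214. The cause was not tested.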
